A study of Rattus norvegicus with 12 samples.

Results

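Signals of 8 neuropeptide genes were examined in the anterior pituitary of estrogen-treated male rats: *Gal* (galanin), *Vip* (vasoactive intestinal peptide), *Tac1* (the precursor of substance P and neurokinin A), *Nmb* (neuromedin B), *Npy* (neuropeptide Y), *Penk* (proenkephalin), *Cck* (cholecystokinin) and *Nmu* (neuromedin U). The members were all probe sets whose annotated gene symbol was exactly 1 of these names. The rule found 8 probe sets, 1 for each gene, of the 31042 on the array that are not controls, and 6 of the 8 passed the filter on low signals that left 18626 probe sets for testing. The series holds 12 arrays, 3 for each of 4 congenic lines that are named Ept1, Ept2, Ept6 and Ept9. Each of these lines carried COP alleles on the ACI background over 1 segment, which lay on chromosome 6 in Ept1, on chromosome 3 in both Ept2 and Ept6, and on chromosome 10 in Ept9. All animals, in every line, received a subcutaneous implant of 5 mg diethylstilbestrol (DES, a synthetic estrogen) at 9 weeks of age for 12 weeks and an injection of BrdU at 50 mg/kg given 4 h before the end, at 21 weeks. No array of an untreated animal or of the ACI parent was analysed here, so the values show differences between treated lines and not a response to DES.

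These peptides are cut from larger precursors in the secretory pathway, stored in dense granules and released to act on G protein-coupled receptors. The anterior pituitary makes several of them itself, and they are known there as local signals beside the classical hormones. Galanin is made by lactotrophs, the prolactin cells, and its transcript is known to be induced by estrogen in the rat, and vasoactive intestinal peptide stimulates prolactin release. The tissue is a mixture of cell types, and in such bulk RNA fewer cells of a type and less RNA per cell cannot be told apart.

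The labels were checked against hormone genes and array controls. *Prl* had a signal of 41979 to 51767, *Gh1* of 27923 to 40693 and *Cga*, the common subunit of the glycoprotein hormones, of 28680 to 39233. The only probe set of *Pomc*, the corticotroph hormone precursor, stayed between 10.6 and 152 and was too dim to be tested. A dim signal from 1 probe set does not show that the transcript was scarce. In the posterior lobe and nerve list, *Avp* (5.90 to 105), *Oxt* (6.70 to 154), *Gfap* (32.8 to 107), *Rax* (8.90 to 108) and *Col25a1* (2.30 to 46.3) were also too dim. *Mbp* (694 to 1065) and *Nefl* (235 to 792) of the same list were measured. The design text speaks of 3 biological replicates per line, whereas the sample notes speak of 3 males that gave 2 independent replicates, so the p-values measure the spread between these arrays, which may in part be technical. The 3′ minus 5′ difference of the *Gapdh* control probe sets, a measure of RNA integrity, averaged 0.38 log2 units on the Ept2 arrays (0.31 to 0.42), 0.25 on the Ept1 arrays, 0.21 on the Ept9 arrays and 0.14 on the Ept6 arrays. For the beta-actin control probe sets the same difference was larger, at 1.76 to 1.85 log2 units on the Ept2 arrays and 1.49 to 1.79 on the others. The part of RNA integrity in the differences described here was not tested.

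None of the 8 genes lies on a chromosome that carries a segment of these lines. *Gal*, *Vip* and *Nmb* are on chromosome 1, *Tac1* and *Npy* on chromosome 4, *Penk* on chromosome 5, *Cck* on chromosome 8 and *Nmu* on chromosome 14. The promoters of *Gal*, the brightest of the genes on every array, and of *Vip* and *Nmb*, whose signals varied together over the arrays, are shown as the 250 bases before the annotated start (RefSeq, build GRCr8), read 5′ to 3′ on the strand of the gene. Capitals mark the core of the cAMP response element (TGACG), the core of the estrogen response element (GGTCA) and the TATA box (here TATAAA).
Gal (chr1:210084573-210084822, minus strand): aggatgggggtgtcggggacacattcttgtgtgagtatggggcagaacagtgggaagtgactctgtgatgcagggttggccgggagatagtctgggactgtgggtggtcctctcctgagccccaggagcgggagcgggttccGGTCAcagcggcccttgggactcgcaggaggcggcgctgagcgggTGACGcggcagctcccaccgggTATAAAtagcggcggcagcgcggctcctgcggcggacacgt
Vip (chr1:44470230-44470479, plus strand): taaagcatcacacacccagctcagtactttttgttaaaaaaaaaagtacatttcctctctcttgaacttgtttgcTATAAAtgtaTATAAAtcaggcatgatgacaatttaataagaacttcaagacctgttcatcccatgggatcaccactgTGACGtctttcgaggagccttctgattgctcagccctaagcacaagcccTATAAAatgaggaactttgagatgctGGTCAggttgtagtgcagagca
Nmb (chr1:144281423-144281672, minus strand): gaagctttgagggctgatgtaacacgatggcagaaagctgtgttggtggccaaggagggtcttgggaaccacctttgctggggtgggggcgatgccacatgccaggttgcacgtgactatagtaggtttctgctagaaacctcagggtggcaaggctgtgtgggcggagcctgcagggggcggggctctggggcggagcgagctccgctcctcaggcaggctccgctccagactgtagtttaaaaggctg
The *Gal* window held 1 match to each of the 3 motifs, and its TATA box began 41 bases before the start. The *Vip* window held 1 core of the cAMP response element, 1 core of the estrogen response element and 3 TATA boxes, of which the nearest began 48 bases before the start. The *Nmb* window held none of these letters. The cores were searched on both strands and the TATA box on the gene's strand only, and over 33469 rat promoter windows of the same length 18.2% held the core of the cAMP response element, 35.4% that of the estrogen response element and 8.06% the TATA box. The full cAMP response element TGACGTCA (both strands, 1.59% of all windows; it contains its core) and the palindromic estrogen response element, with a core at either end (both strands, 0.0239%), were absent from the windows of the 6 members that had an entry in the promoter table. A match is a description of the letters and not a binding site, and a window without a match says nothing about a factor.

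The genes covered nearly the whole range of the array. *Gal* ranked between 1 and 4 among the 31042 probe sets of every array, with a median signal of 97.7% of the array's brightest probe set. The median percentile of the signal on the array was 94.0 for *Vip* (80.8 to 97.8 over the 12 arrays), 81.5 for *Nmb* (68.8 to 92.3) and 78.0 for *Penk* (71.1 to 84.9). These 3 genes were thus in the upper part of every array. The median percentile was 64 for *Nmu* (58.0 to 75.2), 59.6 for *Npy* (52.4 to 82.0), 38.9 for *Cck* (13.0 to 52.1) and 21.5 for *Tac1* (13.3 to 37.8). The percentile gives the place of a probe set among the others and not the order of transcript amounts, because probe sets differ in their brightness per transcript.

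**Figure D1:**
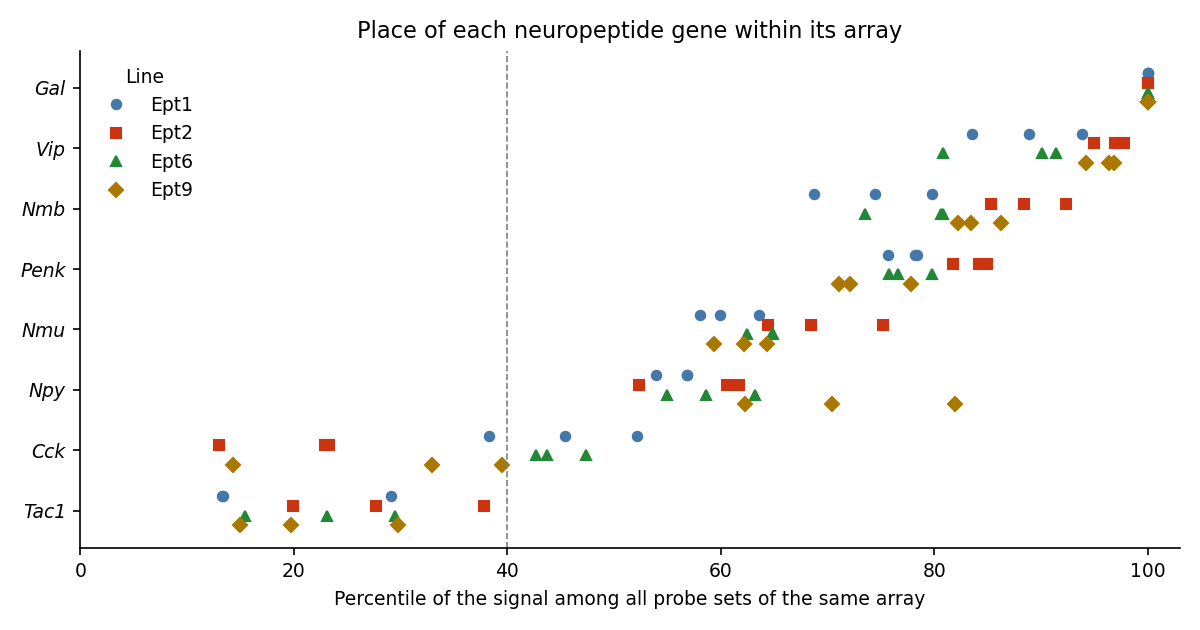
Percentile of each neuropeptide gene's signal among all probe sets of the same array (x axis, percent), with 1 point per array and a colour and symbol for each line; the dashed line marks the percentile of 40 used as the filter on mean signal. *Gal* sits at the right edge on all 12 arrays, and *Tac1* lies below the dashed line on all of them.

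*Gal*, the gene of galanin, showed the narrowest range of the 8 genes. Its signals were 44145, 49846 and 44035 on the Ept2 arrays, 44406, 41970 and 44154 on the Ept1 arrays, 42711, 41054 and 43653 on the Ept6 arrays and 43156, 43890 and 44901 on the Ept9 arrays. The lines overlapped, and the highest value was 1.21-fold the lowest. The Ept2 arrays exceeded the mean of the other 3 lines by 0.08 log2 units (95% interval -0.06 to 0.23; limma adjusted p = 0.587), and the moderated F test among the 4 lines gave an adjusted p of 0.792. Without Ept2 replicate 2, the brightest array for *Gal*, the difference was 0.03 log2 units. *Prl*, the prolactin gene, was the only other probe set among the first 4 on all 12 arrays, and for signals so near the top of the scale the part of saturation in the narrow range was not tested.

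*Vip* varied most widely among the bright genes, and its 6 highest arrays were those of Ept2 and Ept9. Its signals were 5971, 3091 and 4680 on the Ept2 arrays, 1463, 959 and 2594 on the Ept1 arrays, 802, 1878 and 1650 on the Ept6 arrays and 4528, 2738 and 4096 on the Ept9 arrays. All Ept2 and Ept9 arrays were above all Ept1 and Ept6 arrays, with the lowest at 2738 and the highest at 2594 on either side, while Ept2 overlapped with Ept9 and Ept1 with Ept6. The line means were 4581 ± 1443 in Ept2, 3787 ± 934 in Ept9, 1672 ± 837 in Ept1 and 1443 ± 567 in Ept6 (SD, n = 3 each). Ept2 exceeded the mean of the other 3 lines by 1.15 log2 units (95% interval 0.41 to 1.90), a 2.22-fold difference that did not pass the threshold of 0.05 (limma adjusted p = 0.154). Ept2 minus Ept6, the widest of the 6 pairs, was 1.69 log2 units (95% interval 0.79 to 2.60; adjusted p = 0.0953). In the order of line means, the neighbours Ept2 and Ept9 (difference 0.25, 95% interval -0.65 to 1.16) and Ept1 and Ept6 (difference 0.18, 95% interval -0.73 to 1.09) did not differ beyond their spread, and Ept1 minus Ept9 was -1.26 (95% interval -2.17 to -0.35; adjusted p = 0.312).

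*Nmb*, whose peptide belongs to the bombesin family and is known in the rat pituitary as a local inhibitor of thyrotropin release, had a similar order of arrays. Its signals were 2081, 1066 and 1388 on the Ept2 arrays, 541, 386 and 745 on the Ept1 arrays, 515, 792 and 787 on the Ept6 arrays and 1166, 859 and 940 on the Ept9 arrays. The lowest Ept2 array was below the highest Ept9 array, and again all 6 Ept2 and Ept9 arrays were above the 6 others. Over all probe sets tested 0.762% showed the same separation of arrays, which was noticed in *Vip* and *Nmb* after their values had been seen and was not tested. The line means were 1512 ± 519 in Ept2, 988 ± 159 in Ept9, 698 ± 158 in Ept6 and 557 ± 180 in Ept1 (SD, n = 3 each). Ept2 exceeded the mean of the other 3 lines by 1.01 log2 units (95% interval 0.50 to 1.53; limma adjusted p = 0.0923), a 2.02-fold difference, and Ept1 minus the mean of the other 3 was -0.86 (95% interval -1.38 to -0.35; adjusted p = 0.358). None of the neighbours in this order differed past the threshold: Ept2 minus Ept9 was 0.56 (95% interval -0.07 to 1.19), Ept6 minus Ept9 was -0.51 (-1.14 to 0.12) and Ept1 minus Ept6 was -0.34 (-0.97 to 0.29).

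*Penk*, the precursor of the enkephalins, opioid peptides that are made in several pituitary cell types, gave the only difference past the threshold among the 6 tested genes. Its signals were 1061, 827 and 984 on the Ept2 arrays, 676, 578 and 677 on the Ept1 arrays, 749, 581 and 611 on the Ept6 arrays and 434, 647 and 460 on the Ept9 arrays. All 3 Ept2 arrays were above the 9 others, which *Penk* alone of the 6 tested genes showed and which 1.92% of all probe sets tested showed, while Ept9 overlapped with Ept1 and Ept6 through its replicate 2. The line means were 957 ± 119 in Ept2, 647 ± 89.6 in Ept6, 644 ± 57.0 in Ept1 and 514 ± 117 in Ept9 (SD, n = 3 each). *Penk* was 1.86-fold higher in Ept2 than in Ept9, a difference of 0.89 log2 units (95% interval 0.53 to 1.25; limma adjusted p = 0.0324), in a comparison that called 0.832% of all probe sets. This call was lost in 8 of the 12 fits that left out 1 array (adjusted p 0.0517 to 0.132), namely without any of the 3 Ept1 arrays, Ept2 replicate 1 or 3, Ept6 replicate 3, or Ept9 replicate 1 or 3, and was kept in the other 4 (adjusted p 0.0205 to 0.0454). It was also lost with no filter (adjusted p = 0.0964) and with the replicate number as a block in the fit (adjusted p = 0.0832). Against the mean of the other 3 lines *Penk* was 1.59-fold in Ept2, 0.67 log2 units (95% interval 0.38 to 0.96), with an adjusted p of 0.0519, and in Ept9 the difference was -0.52 log2 units (95% interval -0.82 to -0.23; adjusted p = 0.151). Without Ept9 replicate 2 the Ept2 value was 0.73 log2 units and passed the threshold (adjusted p = 0.0351). In the order of line means the neighbours were Ept2 minus Ept6 at 0.56 (95% interval 0.20 to 0.91; adjusted p = 0.149), Ept1 minus Ept6 at 0.00 (-0.36 to 0.36) and Ept1 minus Ept9 at 0.34 (-0.02 to 0.69).

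*Nmu*, whose peptide contracts smooth muscle and reduces food intake, was measured above the filter limit on every array. Its signals were 572, 294 and 375 on the Ept2 arrays, 206, 228 and 284 on the Ept1 arrays, 310, 305 and 271 on the Ept6 arrays and 258, 214 and 292 on the Ept9 arrays. The lowest Ept2 array was within the range of Ept6, and the line means were 414 ± 143 in Ept2, 295 ± 21.2 in Ept6, 254 ± 39.3 in Ept9 and 240 ± 40.3 in Ept1 (SD, n = 3 each). Ept2 exceeded the mean of the other 3 lines by 0.58 log2 units (95% interval 0.20 to 0.97; limma adjusted p = 0.159), and without Ept2 replicate 1 by 0.33 log2 units (adjusted p = 0.356). The neighbours in this order did not differ past the threshold, with Ept2 minus Ept6 at 0.42 (95% interval -0.05 to 0.88), Ept6 minus Ept9 at 0.21 (-0.26 to 0.68) and Ept1 minus Ept9 at -0.08 (-0.55 to 0.39).

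*Npy*, best known as a peptide of hypothalamic and sympathetic neurons, had its 2 highest arrays in Ept9. Its signals were 258, 411 and 847 on the Ept9 arrays, 192, 157 and 189 on the Ept1 arrays, 245, 146 and 253 on the Ept2 arrays and 169, 212 and 283 on the Ept6 arrays. The lowest Ept9 array was below the highest Ept6 array, and the 3 Ept9 arrays spanned 3.28-fold. The line means were 506 ± 305 in Ept9, 221 ± 57.5 in Ept6, 215 ± 59.5 in Ept2 and 179 ± 19.5 in Ept1 (SD, n = 3 each). Ept9 exceeded the mean of the other 3 lines by 1.10 log2 units (95% interval 0.45 to 1.76; limma adjusted p = 0.169), and without Ept9 replicate 3 by 0.66 log2 units (adjusted p = 0.494). In the order of line means Ept6 minus Ept9 had a 95% interval of -1.80 to -0.20 (adjusted p = 0.401), Ept2 minus Ept6 was -0.05 (-0.85 to 0.75) and Ept1 minus Ept2 was -0.21 (-1.01 to 0.59). The 3 blood genes tested (*Hbb*, *Alas2* and *Slc4a1*) summed to 18423 to 29806 on the Ept9 arrays and 13281 to 19723 on the others, and all 3 had a positive Ept9 difference, with a median of 0.46 log2 units. *Hbb*, the hemoglobin beta gene, was highest on the array with the highest *Npy* signal, at 28746 on Ept9 replicate 3, and its part in the *Npy* values was not tested.

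*Cck* and *Tac1* were the genes left out as dim, because their mean signals of 65.9 and 30.8 were under the limit of 69.5. *Cck*, a peptide of gut and brain, had signals of 30.2, 12.0 and 30.5 on the Ept2 arrays, 143, 93.0 and 66.4 on the Ept1 arrays, 109, 82.2 and 91.9 on the Ept6 arrays and 67.7, 13.3 and 51.2 on the Ept9 arrays. The Ept2 arrays were below all Ept1 and Ept6 arrays but overlapped with Ept9, and 5 of the 12 arrays exceeded the limit, all of them Ept1 or Ept6. With no filter the Ept2 difference from the other 3 lines was -1.17 log2 units (95% interval -1.87 to -0.46; limma adjusted p = 0.255). All 3 Ept2 signals lie under the limit, so the size of this difference rests on values too dim to be measured well. *Cck* passed the filter, through its Ept1 and Ept6 arrays, when Ept2 replicate 2 or Ept9 replicate 2, its 2 dimmest arrays, was left out, and no result is drawn from those fits. *Tac1* had signals of 39.4, 25.7 and 67.1 on the Ept2 arrays, 12.1, 10.7 and 43.1 on the Ept1 arrays, 46.8, 29.9 and 16.7 on the Ept6 arrays and 41.4, 23.2 and 13.0 on the Ept9 arrays. The lines overlapped throughout, no array exceeded the limit, and the difference of Ept2 with no filter was 0.52 log2 units (95% interval -0.20 to 1.25). Signals this low do not show whether the *Tac1* transcript was present.

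**Figure D2:**
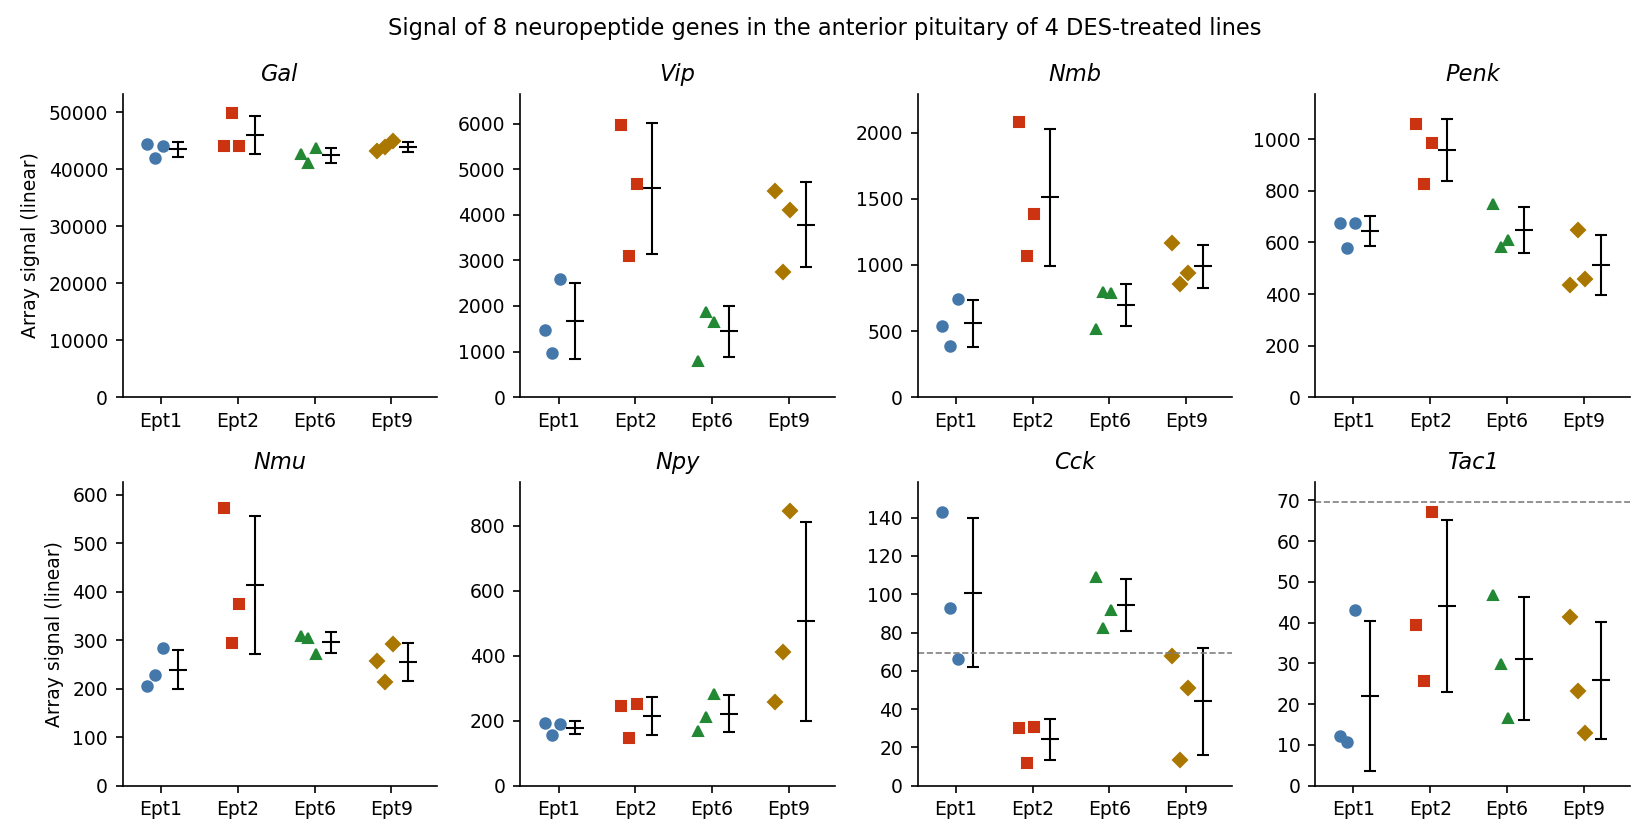
Signals of the 8 genes on the linear scale (y axis, from 0, a separate scale for each gene) in the 4 lines, with 1 symbol per array and the mean ± SD (n = 3) in black beside them; the dashed line in the *Cck* and *Tac1* panels is the filter limit of 69.5. *Gal* was nearly level over the lines, *Vip* and *Nmb* were higher on all Ept2 and Ept9 arrays, and only *Penk* had all 3 Ept2 arrays above the 9 others.

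Over the whole set, the differences between lines were wide for single genes and few passed the test. The moderated F test among the 4 lines called none of the 6 tested genes (limma, adjusted p = 0.0990 for *Penk*, 0.119 for *Nmb*, 0.133 for *Vip*, 0.272 for *Npy*, 0.294 for *Nmu* and 0.792 for *Gal*), where 0.988% of all probe sets tested were called. At an unadjusted p under 0.05 it gave 5 of the 6, against 14.1% of all probe sets. Exact permutation of the arrays among lines (all partitions into 4 groups of 3, unadjusted) gave p = 0.00396 for *Penk*, 0.00468 for *Nmb*, 0.0175 for *Vip*, 0.0263 for *Cck*, 0.0311 for *Nmu*, 0.0423 for *Npy*, 0.201 for *Gal* and 0.454 for *Tac1*. Of these, *Cck* and *Tac1* are not among the 6 tested genes, since their mean signals were under the filter limit. None of the 6 was called in a line against the mean of the other 3, where the share of all probe sets called was 0.773% for Ept2, 0.193% for Ept1, 0.161% for Ept6 and 0.666% for Ept9. At an unadjusted p under 0.05 the same contrasts held 4 of the 6 genes in Ept2, 2 in Ept1, 1 in Ept6 and 3 in Ept9, where the share of all probe sets under that p was 14.4% in Ept2, 7.5% in Ept1, 10.7% in Ept6 and 11% in Ept9. In Ept2 the genes were *Vip*, *Nmb*, *Penk* and *Nmu*, all with positive differences. Of the 6 pairs of lines, Ept2 minus Ept9 called *Penk* and the other 5 called none of the genes, with background shares of 0.102% for Ept1 minus Ept2, 0.204% for Ept1 minus Ept6, 0.494% for Ept1 minus Ept9, 0.628% for Ept2 minus Ept6 and 0.123% for Ept6 minus Ept9. At an unadjusted p under 0.05 those 5 pairs held 4, 0, 3, 3 and 2 of the 6 genes in the same order, and 10.4%, 6.46%, 10.2%, 15.5% and 9.94% of all probe sets. These contrasts share arrays, so a high line also lowers the differences of the other 3.

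**Figure D3:**
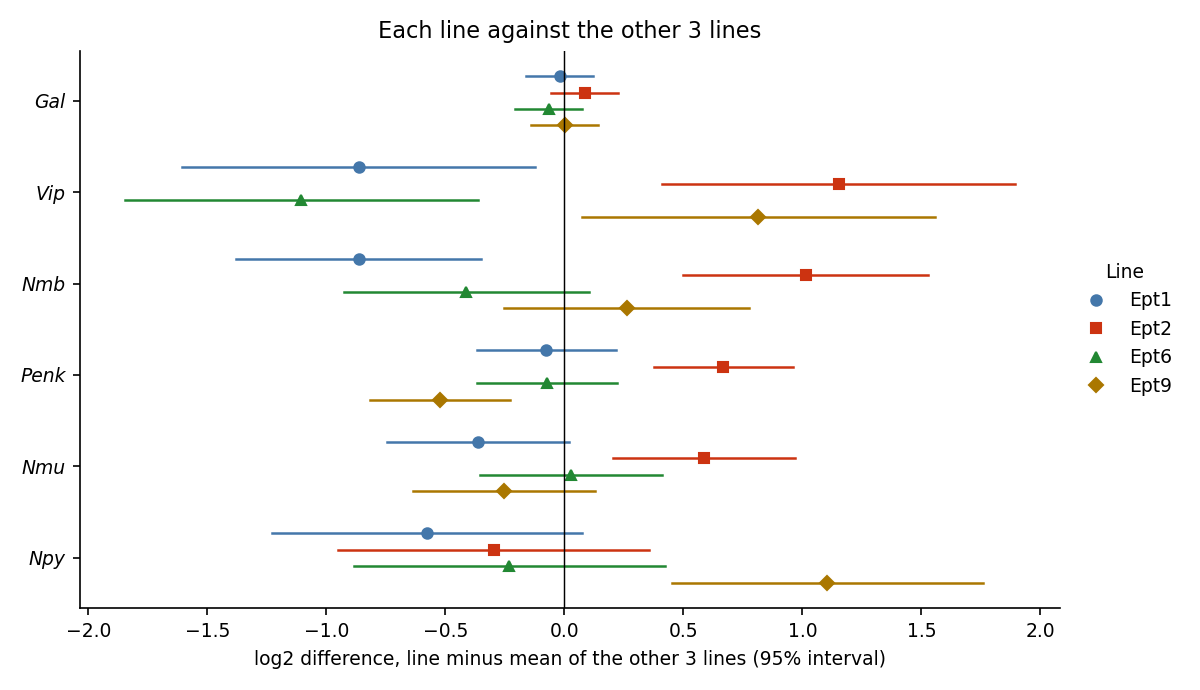
Difference of each line from the mean of the other 3 lines for the 6 tested genes (x axis, log2 units; points are estimates and bars 95% intervals from limma, not adjusted for multiple testing). The Ept2 intervals of *Vip*, *Nmb*, *Penk* and *Nmu* and the Ept9 intervals of *Vip* and *Npy* lie above 0, those of *Vip* in Ept1 and Ept6, of *Nmb* in Ept1 and of *Penk* in Ept9 lie below 0, and none of these differences passed the adjusted threshold of 0.05.

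Ept2 replicate 1 had the highest signal of all 12 arrays in *Vip*, *Nmb*, *Penk* and *Nmu*. The same held for *Gh1* (40693), *Tshb* (18692), *Cartpt* (1162), *Gnrhr* (946), *Fshb* (678) and *Pdyn* (666), among others. These further genes were named after their values were seen. The share of all probe sets that were highest on this array was not counted. Several marker lists of other cells had positive Ept2 differences as well and others had negative ones, and none of their genes was called in a line contrast. All 5 gonadotroph genes were positive (median 0.44 log2 units), and their summed signals were 35042 to 41682 on the Ept2 arrays and 29582 to 37647 on the others. Both thyrotroph genes tested were positive (median 0.51; 10801 to 22082 on the Ept2 arrays and 8032 to 13183 on the others). All 5 folliculostellate and stem cell genes were positive (median 0.39; 1649 to 2279 on the Ept2 arrays and 1099 to 1584 on the others), as were all 5 endothelial genes (median 0.19). Over all probe sets tested the median Ept2 difference was 0.01 log2 units. The lactotroph genes had a median of -0.02 with 1 of 3 positive, the leukocyte genes of -0.22 with 2 of 7 positive and the blood genes of -0.12 with 1 of 3 positive. The somatotroph genes had a median of -0.14 with 1 of 3 positive. *Gh1* had 0.25 log2 units (limma adjusted p = 0.165), and the dimmer *Ghrhr* and *Ghsr* had -0.14 and -0.25. Summed somatotroph signals, carried by *Gh1*, were 36268.4 to 41060.5 on the Ept2 arrays and 28257.2 to 34671.9 on the others. Both corticotroph genes (median 0.36) and both posterior lobe and nerve genes tested (median 0.29) were positive, and the single intermediate lobe gene tested, *Pcsk2*, had -0.64. Over all 11 cell type lists 38 genes were tested, and none was called in limma's F test or in a line contrast. In the F test 14 of the 38 had an unadjusted p under 0.05, against 14.1% of all probe sets tested. *Avpr1b*, a vasopressin receptor gene of corticotrophs, was the only one called in a pair of lines (lowest adjusted p over the 6 pairs 0.0425, limma). The 6 pairs called between 0.102% and 0.832% of all probe sets tested. The part of these cell types in the Ept2 values of *Vip*, *Nmb*, *Penk* and *Nmu* was not tested.

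The spread between replicates set how wide a difference had to be. The SD within lines, pooled over the 4 lines, was 0.57 log2 units for *Vip*, 0.50 for *Npy*, 0.39 for *Nmb*, 0.28 for *Nmu*, 0.21 for *Penk* and 0.06 for *Gal*, where the median over all probe sets tested was 0.19. Among the 1000 probe sets nearest in brightness, *Vip* was at percentile 100, *Npy* at 99.5, *Nmb* at 99.4, *Penk* at 83.1, *Nmu* at 81.0 and *Gal* at 22.3 of this spread. Pooled over the lines, replicates thus varied more in *Vip*, *Npy* and *Nmb* than in nearly all probe sets of like brightness. For *Npy* this rested mostly on Ept9. Its SD was 0.83 log2 units in Ept9, 0.41 in Ept2, 0.35 in Ept6 and 0.15 in Ept1, beside a median of 0.22 in probe sets of like brightness. The SD of the 4 line means was 0.86 log2 units for *Vip*, 0.61 for *Nmb* and 0.56 for *Npy*, each above the 99th percentile of all probe sets tested. It was 0.37 for *Penk* and 0.32 for *Nmu*, and 0.05 for *Gal*, which is at percentile 9.28. The SD of the line means also carries the spread between replicates. In the F test, which sets the line means against that spread, *Nmb* ranked 408, *Vip* 449 and *Npy* 1546 of 18626 probe sets by p.

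*Vip* and *Nmb* varied together over the 12 arrays, also within the lines. Pearson's r was 0.923 (permutation p = 3e-05, Benjamini-Hochberg adjusted over the 28 pairs of genes 0.00084) and Spearman's rho was 0.965 (permutation p = 1e-05, the smallest that 100000 resamples can give; adjusted 0.00028). Without the 2 arrays farthest from the median of *Vip*, Ept1 replicate 2 and Ept6 replicate 1, r was 0.893, and over the deviations from the line means it was 0.943. The permutation exchanged all 12 arrays freely across the lines, so its p does not separate variation between lines from variation within them. The r over the deviations was not tested. In each of the 4 lines the array with the highest *Vip* signal also had the highest *Nmb* signal, although in Ept6 its *Nmb* signal of 792 was close to the next, 787. No other pair of the 28 passed the threshold. The next were *Nmb* and *Nmu* (r = 0.739, adjusted permutation p = 0.0890; 0.424 without the 2 farthest arrays), *Vip* and *Cck* (r = -0.650, adjusted permutation p = 0.140; 0.177 over the deviations from the line means) and *Nmb* and *Cck* (r = -0.642, adjusted permutation p = 0.140; 0.201 over the deviations). The negative values of *Cck* with *Vip* and *Nmb* were thus seen between lines and not within them, and *Cck* is among the genes left out as dim.

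**Figure D4:**
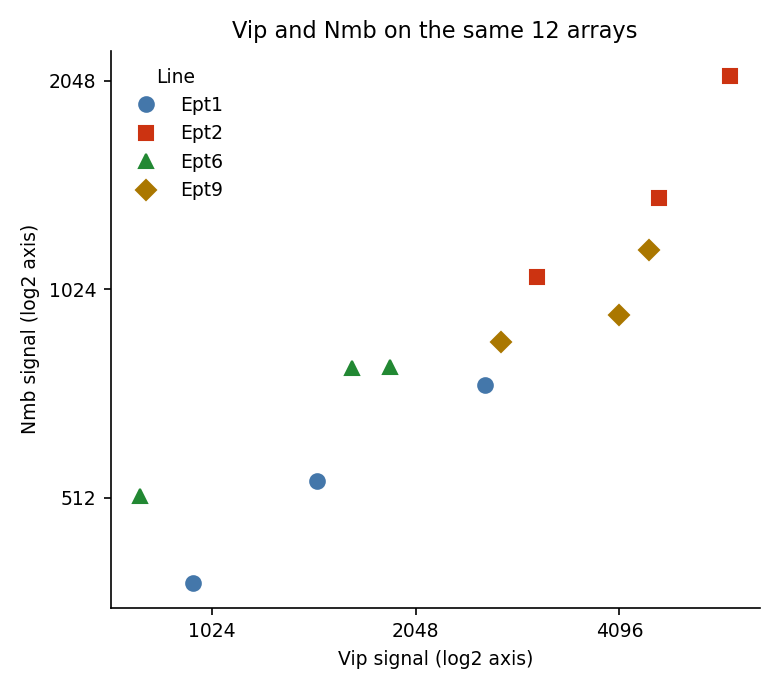
Signals of *Vip* (x axis, log2-spaced) and *Nmb* (y axis, log2-spaced) on the same 12 arrays, with 1 point per array and a symbol for each line. The points follow 1 rising band (r = 0.923 on the log2 scale), with the Ept2 and Ept9 arrays at its upper end and the same direction within each line.

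**Figure D5:**
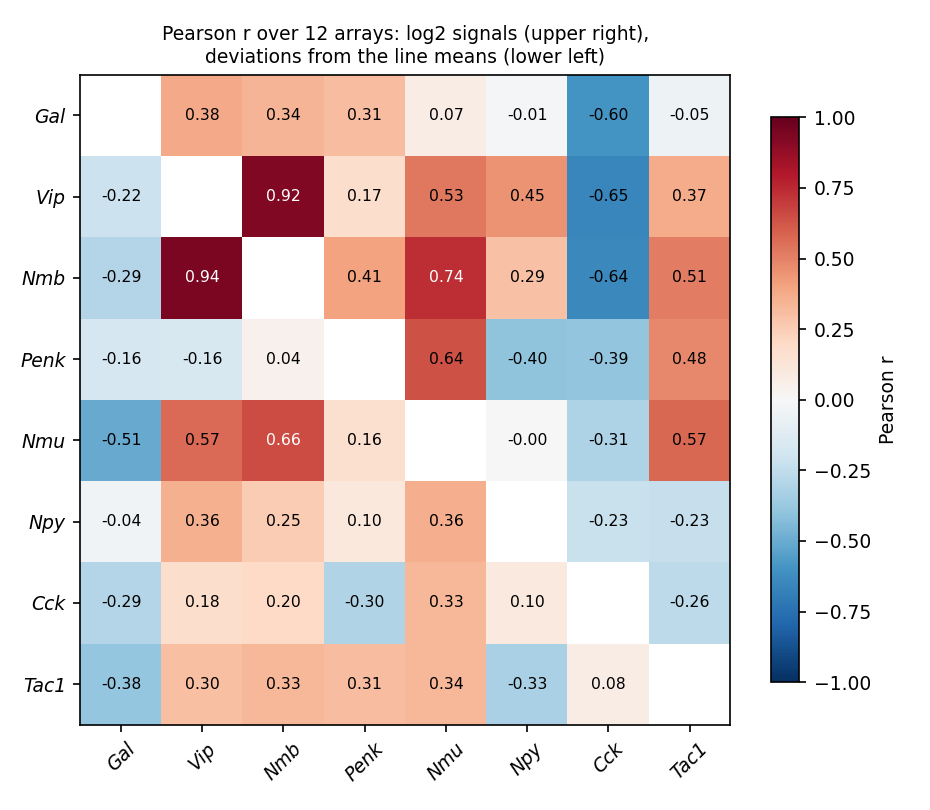
Pearson's r for the 28 pairs of the 8 genes over 12 arrays, from the log2 signals (upper right) and from the deviations of those signals from the line means (lower left), on a colour scale of -1 to 1. *Vip* and *Nmb* stand out on both sides of the diagonal, with 0.923 and 0.943.

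Other genes with array profiles most like each member were found among 10629 genes by Pearson's r over the 12 arrays, which is given as a description. *Gal* was nearest to the ribosomal protein genes *Rpl23* (0.966), *Rps16* (0.949) and *Rpl22* (0.938), which are themselves among the bright genes, with signals of 19808 to 35397. *Vip* was nearest to *Ndufb7* (0.961), a subunit of respiratory complex I, *Tnfrsf12a* (0.958), the receptor of the cytokine TWEAK, and *Sec11a* (0.948), a subunit of the signal peptidase. *Tnfrsf12a* spanned 508 to 1648 over the arrays, whereas *Ndufb7* spanned only 2365 to 2864. *Nmb* was nearest to *Tspo* (0.933), the mitochondrial translocator protein, to *Vip* (0.923) and to *Hsd17b11* (0.912). *Npy* was nearest to *Ramp1* (0.920), a partner of the receptor for calcitonin gene-related peptide, *Uhrf1* (0.890) and *Reg3b* (0.880). *Penk* was nearest to *Cables1* (0.912), *Vom2r53* (0.897) and *Neto2* (0.887), and *Nmu* to *Chd1l* (0.890), *Dcn* (0.889), the proteoglycan decorin, and *Ets2* (0.882). The 12 arrays share lines and scaling, and the highest of many correlations is high by selection.

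The receptors of these peptides gave almost no measurable signal. Of 25 receptor genes in 8 families, 22 had a probe set, and 1 passed the filter: *Adcyap1r1*, the PACAP receptor, with 43.2 to 231. Its largest line difference was -0.15 log2 units, in Ept9 (adjusted p = 0.945), and its unadjusted p was not under 0.05 in the F test or in any line contrast. *Vipr1* and *Vipr2*, the VIP receptors, had signals of 33.9 to 83.9 and 9.30 to 26.0, *Nmbr*, the receptor of neuromedin B, of 2.60 to 82.6, and *Oprd1*, the delta opioid receptor, of 12.6 to 96.7. *Galr1*, *Galr2* and *Galr3*, the galanin receptors, had median signals of at most 29.4. Values in this range do not show that a receptor was absent.

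The enzymes that cut and finish peptide precursors ranged from among the brightest genes to near the limit of the filter. Of 14 such genes, 13 had a probe set, 12 were tested and none was called in limma's F test or in a line contrast. Of the 12, *Pcsk2* and *Pcsk4* had an unadjusted p under 0.05 in the F test, against 14.1% of all probe sets tested. The medians of the dimmer ones were 367 for *Pcsk7*, 322 for *Pcsk5* and 98.0 for *Pcsk4*. Among the brightest, *Cpe*, carboxypeptidase E, had signals of 29681 to 34534, *Scg5*, the chaperone of the convertase encoded by *Pcsk2*, of 22073 to 25093, *Pam*, the enzyme that amidates peptides, of 13108 to 15431 and *Pcsk6*, a proprotein convertase, of 11987 to 14043. The convertase gene *Pcsk2* showed the widest difference of a line from the other 3 among the 12. It had 876, 1145 and 1027 on the Ept2 arrays, 1311, 1857 and 1560 on the Ept1 arrays, 1813, 1541 and 1488 on the Ept6 arrays and 1361, 1620 and 1743 on the Ept9 arrays. The Ept2 difference from the other 3 lines was -0.64 log2 units and missed the threshold (limma adjusted p = 0.0504).

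Among 53 other neuropeptide precursors, 43 had a probe set, 10 were tested and none was called (limma F test, line contrasts and pairs). Of the 10, *Cartpt* and *Nppc* were under an unadjusted p of 0.05 in the F test, against 14.1% of all probe sets tested. The brightest were *Nppc*, the precursor of C-type natriuretic peptide, with 2059 to 8263, *Vgf*, a granule protein and peptide precursor, with 2733 to 3797, *Cartpt*, the CART precursor, with 303 to 1162, and *Pdyn*, the dynorphin precursor, with 345 to 666. *Nppc* had 8263, 7062 and 6966 on the Ept6 arrays and an Ept6 difference of 0.77 log2 units from the other lines (adjusted p = 0.265). *Cartpt* had 1162, 727 and 480 on the Ept2 arrays, the first the highest of all 12, and an Ept2 difference of 0.71 (adjusted p = 0.208). Over the 10 genes tested the median line difference lay between -0.07 (Ept9) and 0.13 (Ept1), beside medians of -0.01 and 0.01 over all probe sets tested.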

How the data were processed

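The deposited values are microarray intensity values (signals, linear scale), 1 per probe set for 31099 probe sets on each of 12 arrays, which the authors scaled so that the mean after trimming 2% at each end was 500.18 to 500.19 on every array. Which software and background correction gave them is not stated in the labels or files used here. Arrays were grouped by line from their titles. For this report 57 control probe sets and 12416 dim probe sets (mean signal under the 40th percentile, 69.5) were left out, and log2(signal + 16) of the remaining 18626 was used without further scaling, so fold changes understate the change of dim genes. No pair of arrays held identical values, and their correlations ran from 0.958 to 0.970; the number of arrays limits the precision.

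Lines were compared with limma 3.58.1 in R 4.3.3 (moderated F test, each line minus the mean of the other 3, and 6 pairs) on the whole table, with Benjamini-Hochberg adjustment over all probe sets tested within a contrast and a threshold of 0.05. Python 3.11.15 with numpy 2.4.6 and scipy 1.17.1 gave the exact and the resampled permutation tests, all two-sided. The scripts were tested on simulated data. By the platform annotation, 20832 probe sets have 1 gene symbol, 436 have more than 1 and 9831 have no symbol, and a gene with several probe sets is represented by its brightest. Named genes were the members, called or bright members of the fixed lists of receptors, precursors and enzymes (up to 6 of the brightest), cell type markers, and the 3 genes most like each tested member. Receptors with low signals, *Pcsk2*, *Pcsk4* and the list genes named as highest on Ept2 replicate 1 were named after their values were seen. The members and lists were chosen with earlier results of these data known. The alternatives were other pseudocounts, normalizations and filters, a replicate block, an eBayes trend, array weights and leaving out each array in turn.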

Additional observations from a re-analysis of the deposited data

How the results depend on the processing

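The alternatives were run for 1 line difference of each tested gene, that of *Gal*, *Vip*, *Nmb*, *Penk* and *Nmu* in Ept2 and of *Npy* in Ept9, and for *Penk* in Ept2 minus Ept9, and these kept their direction under all 21. Each line difference was the widest of the 4 for its gene, picked from these same data, and the *Penk* pair was the only pair called. A kept direction was therefore likely from the start. The number of the 8 genes called among the 4 lines was 0, and became 2 with a filter at the 60th percentile (*Nmb* and *Penk*) and 3 with an eBayes trend (*Vip*, *Nmb* and *Penk*); leaving out single arrays gave 0 to 0. For Ept2 against the other lines it was 0, and became 1 with a pseudocount of 64 and 1 with quantile normalization (both *Penk*). It became 2 with the 60th percentile filter and 3 with the trend, with the same genes as in the F test. Without single arrays it was 0 to 2, and the 2 were *Penk* and *Cck* without Ept9 replicate 2. *Cck* passed the filter only in fits without a dim array and its Ept2 signals lie under the limit, so no result is drawn from it. For Ept9 the number of genes called was 0, and 2 with the trend (*Npy* and *Penk*). In Ept1 and Ept6 it was 0 throughout.

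The limits of the whole table moved with it. Among the lines 184 probe sets were called, 53 with no filter, 295 with the 60th percentile filter and 419 with the trend, and between 74 and 135 when 1 array was left out. The count in Ept2 was 144, and 32, 232, 334 and 27 to 107 in the same order. For Ept1 it was 36, with 18 under no filter, 73 under the trend, and from 12 to 34 when 1 array was left out. For Ept6 it was 30, with 16 under a pseudocount of 1, 9 under no filter, 60 under the 60th percentile filter, 104 under the trend, and from 11 to 29 when 1 array was left out. For Ept9 it was 124, with 29 under no filter, 219 under the trend, and from 29 to 99 when 1 array was left out. No filter adds dim probe sets to the adjustment; the cause of the other shifts was not tested. Median centring and array weights moved none of these counts by more than 1.5 times.

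*Penk* in Ept2 minus Ept9 was 0.89 log2 units, and 0.89 with no filter, where it lost its call (adjusted p = 0.0964, limma; range over all alternatives 0.00319 to 0.132); without single arrays it was 0.79 to 1.07. Pearson's r of *Vip* and *Nmb* was 0.904 to 0.940 without single arrays and 0.922 to 0.928 under the other pseudocounts and normalizations, each with a permutation p of at most 0.00015. The mean over all probe sets of a gene could not be set against the brightest, because every gene has 1 probe set.

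Over the whole table no pairing of the arrays by the replicate numbers of the titles was seen. Of 18 correlations between the deviations of same-numbered arrays of different lines, which ran from -0.14 to 0.07, 0 exceeded 0.1. Such correlations cannot exclude a shared factor that acts on few probe sets. With the replicate block in the fit, 84 probe sets differed among the lines, 15 in Ept1, 47 in Ept2, 12 in Ept6 and 39 in Ept9, and the *Penk* value of 0.89 in Ept2 minus Ept9 had an adjusted p of 0.0832 (limma), so that its call was lost. The block left the number of the 8 genes called among the lines and in each line contrast at 0.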
